A study of Homo sapiens with 2 samples.

Results

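VEGFA and 8 further genes of the hypoxia response that act outside glycolysis were followed in L-428, an established line of cultured Hodgkin's lymphoma (HL) cells. The group comprises VEGFA, ADM, BNIP3, BNIP3L, P4HA1, NDRG1, MXI1, BHLHE40 and the regulator HIF1A, and its members were chosen by their known role in the hypoxia response with the ratios on these same arrays already known, so that the counts and ratios given for them are descriptions. Every probe set whose only gene symbol in the platform annotation was 1 of these 9 was taken, which gave 15 of the 19065 probe sets with 1 symbol. RNA from 2 cultures had been hybridized to 1 Affymetrix HG_U133A array each. The vector control carried pcDNA6.2-GW/EmGFP-miR-neg, which the paper's methods call empty, and the other culture carried pcDNA6.2-GW/EmGFP-miR-DUSP5, which expresses an artificial microRNA against DUSP5, a nuclear phosphatase of the kinase ERK. Both vectors encode the fluorescent protein EmGFP, both cultures came from the same established line, and the share of transfected cells is not given in the sources used here. The experiment asked what lower DUSP5 does to gene expression in HL cells. Each condition has 1 array, so the differences could not be checked against replicates and carry no p-value. In such bulk RNA, fewer cells expressing a gene and less RNA per cell cannot be told apart.

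Cells sense low oxygen through hypoxia-inducible factor (HIF), a pair of proteins made of an oxygen-labile alpha subunit such as HIF1A and the stable partner ARNT. When oxygen is present, EGLN prolyl hydroxylases mark the alpha subunit, the ubiquitin ligase built around VHL recognises the mark, and the protein is degraded, so that HIF activity is set largely at the level of protein and only in part at that of HIF1A mRNA. Stable HIF binds the short DNA cores ACGTG and GCGTG and raises 2 well known arms of genes, 1 for glucose uptake and glycolysis and 1 for blood vessel growth, mitophagy, matrix modification and growth control. VEGFA is the classical vessel growth factor of the second arm.

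At a mean signal of at least 200 over the 2 arrays, 13 of the 15 probe sets and 7 of the 9 genes were measured. Of these 13, none was at least 1.5-fold higher after knock-down of DUSP5 and 7 were at least 1.5-fold lower, belonging to VEGFA (3 of 4 probe sets), BNIP3L (2 of 2), BNIP3 (1 of 2) and MXI1 (1 of 1). Among all 10184 probe sets at this signal, 15.9% were that much higher and 18.8% that much lower. At least 2-fold lower were 5 of the 13 and none was 2-fold higher, beside 7.39% lower and 4.61% higher among all. The 7 and the 5 both include VEGFA 211527_x_at, which passed the filter on signal through the control array, with signals of 326 and 118. The median log2 ratio of the 13 was -0.83, with a range from -2.45 to 0.39, and that of all 10184 was 0.0013. P4HA1 and HIF1A were lower and BHLHE40 was higher by less than 1.5-fold, and ADM and NDRG1 were too dim to be read.

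**Figure D1:**
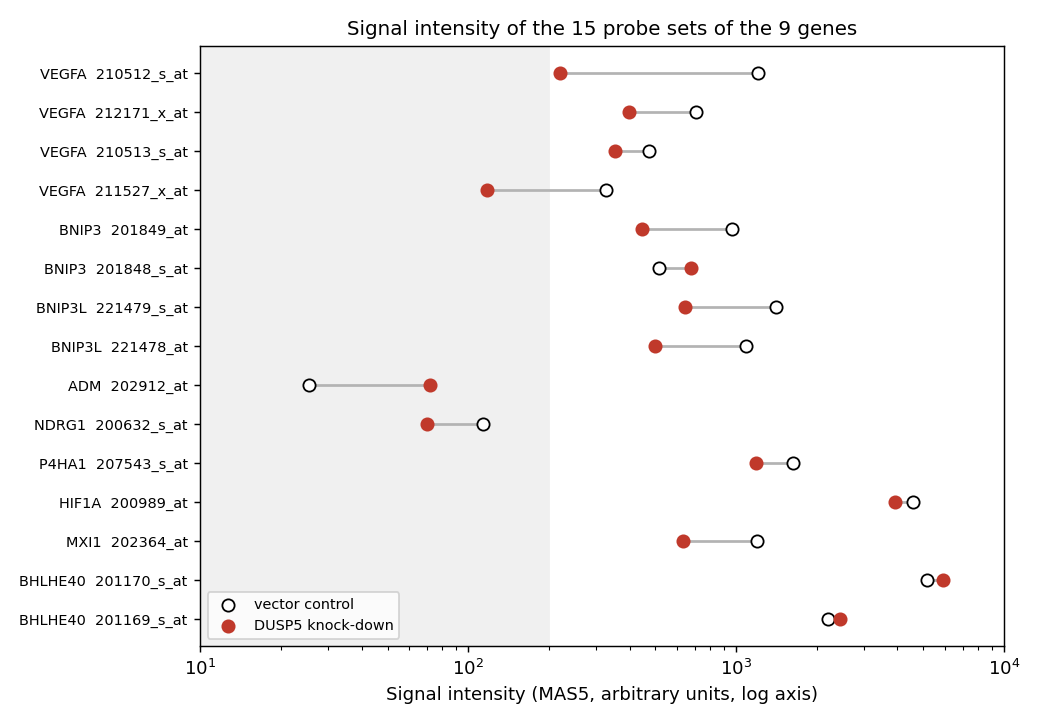
MAS5 signal intensity (arbitrary units, log axis) of the 15 probe sets on the vector control array (open circles) and the DUSP5 knock-down array (red circles), 1 array each, with a grey line joining the values of a probe set and grey shading under a signal of 200. The red circle lies left of the open circle at all 4 VEGFA probe sets and at both BNIP3L probe sets, and right of it at BHLHE40, at ADM and at 1 of the 2 BNIP3 probe sets.

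As a measure of error, the disagreement among probe sets that target 1 gene was expressed as a standard deviation (SD) of the log2 ratio. This SD depended on brightness, with 1.10 below a mean signal of 100, 0.83 in the band up to 200, 0.59 up to 500, 0.46 up to 1000, 0.34 up to 3000 and 0.29 beyond. It reflects how well probes agree on these 2 arrays, and the variation between cultures is not in it. DUSP5 itself had a signal of 628 with the control vector and 368 with the DUSP5 vector at its only probe set (log2 ratio -0.77, SD 0.59). GAPDH, a glycolytic enzyme and common reference gene, had a median log2 ratio of 0.98 over its 3 probe sets, so that a ratio between 0 and 0.98 given here turns negative relative to GAPDH. ACTB, a further reference gene, had log2 ratios of 0.76 and 0.80. Under quantile normalization these were 0.06 and 0.10, and that of the brightest GAPDH probe set moved from 1.12 to 0.55. The median signal of an array was 161 with the control vector and 164 with the DUSP5 vector. Of 10 markers of HL cells, 9 were measured. Of these, 2 were at least 1.5-fold higher, namely TNFRSF8, which encodes CD30, at 1724 and 3618 and CCL17 at 3022 and 6019. None was that much lower and 7 lay in between, among them BATF3 at 6054 and 4700. Among all 6301 measured genes, 15.6% were that much higher and 19% that much lower. None of the listed T cell (4 genes), myeloid (3) or endothelial (5) markers reached a mean signal of 200, and of the B cell (4) and fibroblast (5) markers 1 and 2 did. The summed signal of the 5 endothelial markers was 259.7 with the control vector and 367.6 with the DUSP5 vector, and that of the 4 T cell markers was 186 and 381. The part of such dim signals in the results was not tested.

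VEGFA, which drives the growth and permeability of blood vessels, was lower after knock-down at each of its 4 probe sets. Probe set 210512_s_at gave a signal of 1203 with the control vector and 219 with the DUSP5 vector, or 18.2% of control, and 212171_x_at gave 708 and 399, or 56.4%. Probe set 210513_s_at gave 471 and 353, or 75.0%, and 211527_x_at gave 326 and 118, or 36.2%. All 4 thus pointed the same way, but they differed in size. The log2 ratios were -2.45 (SD 0.46) for 210512_s_at, -0.83 (0.46) for 212171_x_at, -0.42 (0.59) for 210513_s_at and -1.47 (0.59) for 211527_x_at. That of 210513_s_at was within 1 SD and the others exceeded it. From lowest to highest the 4 ratios spanned 2.04. Among 2368 pairs of probe sets of 1 gene with a mean signal from 200 to 500, 59 (2.49%) were as far apart, though 4 probe sets form more than 1 pair. Over the 4 probe sets the mean log2 ratio was -1.29 ± 0.89 (SD, n = 4 probe sets), which corresponds to 40.9% of control, and probe sets of 1 gene are not replicates of a condition. Of all 10184 measured probe sets, 30 had a lower ratio than 210512_s_at, and 9 others lay within 0.1 of it on the log2 scale. With 2 arrays a pattern is a single ratio, and no gene was named for a pattern like that of VEGFA. The probe set 211527_x_at passed the filter on signal through the control array, since its signal after knock-down was under 200. All 4 VEGFA probe sets are of the types _s_at and _x_at, whose probes can match more than 1 transcript. No VEGFA value was therefore left once these types were set aside.

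Most other genes of the VEGF system were dim in L-428 cells. Of 8 listed ligands and receptors, 3 were measured. VEGFB, a relative of VEGFA with little action on vessel sprouting, had a signal of 140 with the control vector and 334 with the DUSP5 vector (log2 ratio 1.26, SD 0.59), so that it was on the opposite side to VEGFA, and it passed the filter on signal through the knock-down array. PGF, the placental growth factor, was nearly equal at 516 and 527 (0.03, SD 0.46). The co-receptor NRP2, which binds VEGF and semaphorins, had log2 ratios of -1.33 and -0.27 at its 2 measured probe sets, with signals of 685 and 272 at the brighter and 319 and 265 at the other. FLT1, KDR, FLT4 and NRP1, the tyrosine kinase receptors of the family and a further co-receptor, stayed under a mean signal of 200 at every probe set, as did VEGFC. For these genes the arrays gave no usable ratio.

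ADM encodes adrenomedullin, a secreted peptide that widens vessels. Its only probe set gave 25.4 with the control vector and 72.3 with the DUSP5 vector. The log2 ratio of 1.51 (SD 1.10) rests on signals under 100, where 39.3% of all 8778 probe sets exceeded 1.5-fold upwards and 19.6% did so downwards. With 32 added to each signal the ratio was 0.86. The signal of ADM was thus low on both arrays, and no direction is read from it. Of its 6 listed partners, RAMP1, which helps form calcitonin family receptors, had 262 and 279.7 (log2 ratio 0.09), and PAM, the enzyme that amidates peptide hormones, had 279.9 and 270.7 at its brightest probe set (-0.05). The receptor CALCRL and its partners RAMP2 and RAMP3 were under a mean signal of 200.

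BNIP3 and BNIP3L are proteins of the outer mitochondrial membrane that tie damaged or surplus mitochondria to the autophagy machinery. BNIP3L, also known as NIX, had signals of 1411 with the control vector and 643 with the DUSP5 vector at 221479_s_at, and of 1085 and 496 at 221478_at. Its probe sets gave the same answer, 45.6% and 45.7% of control, with log2 ratios of -1.13 (SD 0.34) and -1.13 (SD 0.46). BNIP3 was measured by probe sets that went opposite ways. Probe set 201849_at gave 966 with the control vector and 445 with the DUSP5 vector (46.1% of control, log2 ratio -1.12, SD 0.46), whereas 201848_s_at gave 517 and 676 (131% of control, 0.39, SD 0.46). Such a disagreement of 1.51 on the log2 scale was uncommon. Among 1514 pairs of probe sets of 1 gene with a mean signal from 500 to 1000, 45 (2.97%) were as far apart. The mean over both BNIP3 probe sets was -0.36 ± 1.06 (SD, n = 2 probe sets), so the arrays give no settled direction for BNIP3.

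**Figure D2:**
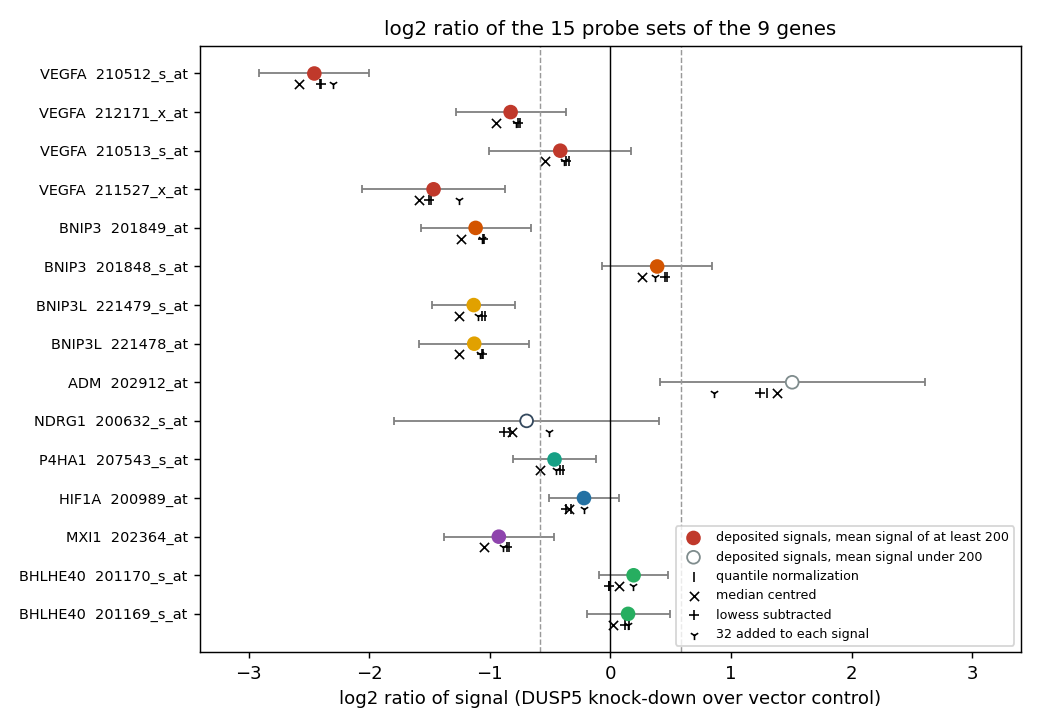
Log2 ratio of signal (DUSP5 knock-down over vector control) of the 15 probe sets (large points, open where the mean signal was under 200), with bars of 1 SD, dashed lines at 1.5-fold, and small marks for the ratio under 4 other scalings. VEGFA 210512_s_at lies farthest left at -2.45, both BNIP3L points lie at -1.13, the 2 BNIP3 points lie on opposite sides of 0, and the scalings move no point by as much as its bar.

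Genes that work beside BNIP3 and BNIP3L in autophagy and at the outer mitochondrial membrane were more often lower than higher. Of 11 listed genes, all measured, 7 were at least 1.5-fold lower at the brightest probe set and none was that much higher, with a median log2 ratio of -0.68. Among all 6301 measured genes, 15.6% were that much higher and 19% that much lower, with a median of 0.0089. MAP1LC3B, which encodes the LC3 protein of autophagosome membranes, was lowest, with signals of 4637 with the control vector and 1763 with the DUSP5 vector (log2 ratio -1.40, SD 0.29) and a ratio of -1.49 at its other probe set. Its relative GABARAPL1 had a ratio of -0.92 and GABARAPL2 of -0.68, whereas GABARAP had -0.01. GABARAPL1, with signals of 355 and 187, passed the filter through the control array. The autophagy receptor OPTN had ratios of -0.68 and, at a probe set with 162 on the knock-down array, -2.27, the receptor SQSTM1 had -0.61, and BCL2, the anti-apoptotic protein that also binds BECN1, had -1.30. Of the anti-apoptotic BCL2L1, the brightest probe set had -0.72 and the others had 0.44 and -0.76. RHEB (-0.51), the kinase PINK1 (-0.01) and BECN1 (0.14) were within 1.5-fold. With quantile normalization or a lowess fit subtracted, 6 of the 11 were lower and none was higher.

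P4HA1 encodes a catalytic subunit of the enzyme that hydroxylates proline in collagen. It had a signal of 1632 with the control vector and 1184 with the DUSP5 vector (72.5% of control), a log2 ratio of -0.46 that exceeded 1 SD (0.34) but not 1.5-fold. P4HA2, which encodes the alternative catalytic subunit, had 2344 and 1131 and a ratio of -1.05 (SD 0.34). P4HB, the subunit that both share, was at -0.25 by 1 probe set and 0.25 by the other. The lysyl hydroxylases PLOD1 (0.33) and PLOD3 (0.11) were within 1.5-fold, and PLOD2, LOX and SERPINH1 were under a mean signal of 200. Of the 4 measured genes of collagen modification other than P4HA1, 1 was thus at least 1.5-fold lower and none that much higher. Among all 6301 measured genes, 19% were that much lower and 15.6% that much higher.

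MXI1 encodes a repressor that competes with MYC for the partner MAX. Its only probe set gave 1200 with the control vector and 632 with the DUSP5 vector, or 52.7% of control, and the log2 ratio of -0.93 was 2.03 times the SD of 0.46. Of all measured probe sets, 886 had a lower ratio. MYC, which pairs with the same partner to activate genes, had 1382 and 2099 (log2 ratio 0.60, SD 0.34), on the opposite side of 0 to MXI1. MAX itself had ratios from -0.42 to 0.08 over its 4 measured probe sets. MNT (0.03) and MLXIP (-0.01) were near 0. MLX had 0.46 at its brightest probe set, and 0.60, past 1.5-fold, and 0.56 at its other measured probe sets. The repressors MXD1 and MXD3 and the factor MGA were under a mean signal of 200. At the brightest probe set MYC was the only gene of this list past 1.5-fold, and it no longer was with ratios centred on their median. Among all 6301 measured genes, 15.6% were that much higher and 19% that much lower.

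BHLHE40, a repressor that links hypoxia to the circadian clock, was bright on both arrays and nearly equal between them. Probe set 201170_s_at gave 5179 with the control vector and 5917 with the DUSP5 vector (log2 ratio 0.19, SD 0.29), and 201169_s_at gave 2206 and 2441 (0.15, SD 0.34). Both differences were under 1 SD, and the first turned to -0.02 at the lowest under the other scalings, so no direction is read from them. BHLHE41, its close relative, was under a mean signal of 200. Of 4 measured clock genes, the activators BMAL1 (-0.77, and -0.86 at its other probe set) and CLOCK (-0.66) were at least 1.5-fold lower, and PER2 (-0.18) and NFIL3 (-0.21) were not. Among all 6301 measured genes, 19% were that much lower and 15.6% that much higher. When each gene took the mean of all its probe sets, 1 of the 4 was lower, with a median of -0.23.

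NDRG1, a stress-induced protein linked to differentiation and to lower metastasis, was dim. Its probe set gave 114 with the control vector and 70.4 with the DUSP5 vector, and the log2 ratio of -0.69 was smaller than the SD of 1.10 at this signal. In the same family NDRG3 had 346 and 588 at its brighter probe set (0.76, SD 0.59) and 0.55 at the other, while NDRG2 and NDRG4 were under a mean signal of 200. No direction is read for NDRG1.

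HIF1A, the oxygen-labile subunit of HIF, was bright and close to equal. Its probe set gave 4557 with the control vector and 3915 with the DUSP5 vector, or 85.9% of control, and the log2 ratio of -0.22 was within 1 SD (0.29). Among the genes that set HIF level and activity, 14 of 19 were measured, with 4 past 1.5-fold on the higher side, 3 on the lower side and 7 in between (15.6% and 19% of all measured genes were that much higher and lower), with a median of 0.10 that turned to -0.02 with ratios centred on their median. The chaperones HSP90AA1 (1.06) and HSP90AB1 (1.02), which hold the alpha subunit, and ELOB (0.89) and RBX1 (0.84), which are parts of the VHL ubiquitin ligase, were higher. COPS5 (-1.14), a subunit of the COP9 signalosome, ELOC (-0.75), the ligase partner of ELOB, and the coactivator CREBBP (-0.71) were lower. Parts of the same ligase were thus found at both ends. The oxygen sensor EGLN1 had 332 and 323 (-0.04), and HIF1AN, which hydroxylates HIF at its activation domain, had -0.39 and -0.22 at its 2 probe sets.

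The glycolytic arm of the hypoxia response was set beside the VEGFA group on the same arrays. Of 18 measured genes of glucose uptake and glycolysis, 12 were higher by 1.5-fold or more, 3 were lower by as much and 3 lay in between, with a median log2 ratio of 0.90 that turned to -0.080 relative to GAPDH, itself a gene of this list, whereas of the 7 measured genes of the VEGFA group none was higher and 4 were lower at the brightest probe set, with a median of -0.93. Of all 6301 measured genes, 15.6% were that much higher and 19% that much lower. GPI, PFKP, ALDOA, TPI1, GAPDH, PGK1, PGAM1, ENO1, ENO2, PKM and LDHA had a mean signal above 3000, as did HIF1A and BHLHE40. Of 1068 probe sets that bright, 26.2% were higher and 7.4% lower, with a median of 0.26. From 500 to 1000, where VEGFA, BNIP3 and MXI1 lay, 13.4% were higher and 21.8% lower, with a median of -0.06. The part that brightness plays was not tested. The difference between the lists was not tested, because 1 array per condition gives no measure of the spread between cultures. Under quantile normalization 10 of the 18 were higher and 3 lower, and of the 7 none was higher and 4 were lower. GPI (2.68), PFKP (1.93) and HK2 (1.58), enzymes of the early steps of glycolysis, were highest, and HK2, with signals of 169 and 505, passed the filter through the knock-down array, as did PFKFB3 with 187 and 334. At the other end, the glucose transporters SLC2A3 (-0.85, and -1.07 at its other measured probe set) and SLC2A1 (-0.78) and the muscle type phosphofructokinase PFKM (-0.76) were lower. SLC2A1, a textbook HIF target, had 778 with the control vector and 452 with the DUSP5 vector, and so lay on the same side as VEGFA and BNIP3L. When each gene took the mean of all its probe sets, 3 of the 7 genes of the VEGFA group were lower, with a median of -0.46, and 11 of the 18 glycolytic genes were higher and 2 lower, with a median of 0.62. In this step BNIP3, whose probe sets disagreed, moved from -1.12 to -0.36.

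**Figure D3:**
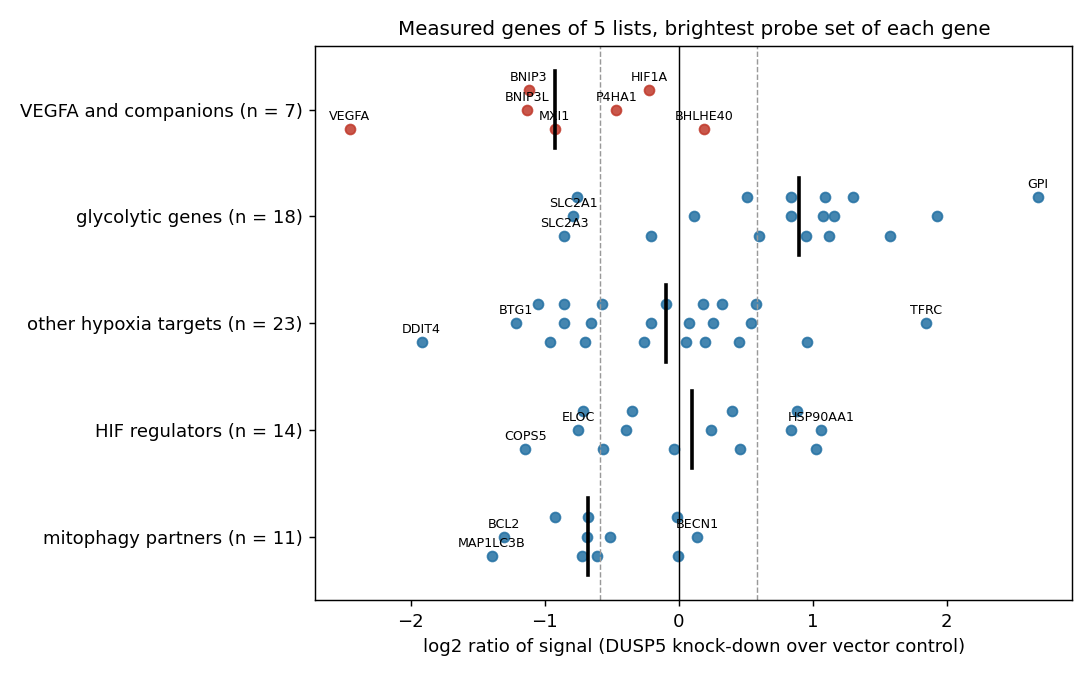
Log2 ratio of signal (DUSP5 knock-down over vector control, 1 array each) for genes of 5 lists at a mean signal of at least 200, each gene at its brightest probe set, with the list median as a black bar and dashed lines at 1.5-fold; the vertical offset of points has no meaning. The median is -0.93 for VEGFA and its companions, 0.90 for glycolytic genes (-0.080 relative to GAPDH), -0.09 for other hypoxia targets, 0.10 for HIF regulators (-0.02 when centred on the median) and -0.68 for the mitophagy partners.

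Hypoxia-induced genes outside both groups were spread over both directions. Of 42 such genes on the arrays, 23 were measured, with 2 past 1.5-fold on the higher side, 8 on the lower side and 13 in between, beside 15.6% and 19% of all measured genes, with a median of -0.09. Under quantile normalization 4 were higher and 7 lower, and the median was 0.04 when each gene took the mean of all its probe sets. Among the 8 lower genes, ZNF395, with signals of 286 and 147, passed the filter on signal through the control array. SAP30, also among them, had -0.85 at its brightest probe set and 0.25 at its other measured probe set. The lowest were DDIT4 (-1.92), an inhibitor of mTOR signalling that also responds to other stresses, with 2187 with the control vector and 579 with the DUSP5 vector, the growth inhibitor BTG1 (-1.21, and -0.92 at its other probe set) and P4HA2 (-1.05). The highest were the transferrin receptor TFRC (1.85, with 2383 and 8578), the glycogen branching enzyme GBE1 (0.96) and HILPDA (0.58), which promotes lipid droplets and did not reach 1.5-fold. ERO1A (0.06), AK4 (-0.21) and the chemokine receptor CXCR4 (-0.26), further well known HIF targets, were within 1.5-fold, and STC1 and EGLN3 were under a mean signal of 200. Known hypoxia targets thus lay on both sides of 0 and between.

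Promoter sequences of part of the group are shown for the HIF core, and the ratios of the same genes are given after them. RefSeq promoters of assembly GRCh38.p14 were used for 5 of the 9 genes (BNIP3, P4HA1, MXI1, ADM and BHLHE40), matched by symbol, with 7 start sites. In the 250 bases before a start, the letters ACGTG or GCGTG were searched on both strands, on the reverse strand as CACGT or CACGC. At least 1 of them was found at 6 of the 7 starts and in all 5 genes, and at 43.2% of 35116 promoters in the table (18.5% for ACGTG and 32.2% for GCGTG). The longer motif CACGTG, which contains ACGTG on each strand and is known as the E-box bound by MYC-MAX and MXI1-MAX pairs and by BHLHE40, was found in BNIP3 and BHLHE40 and at 6.34% of all promoters. The stretches with the matches, each with 15 further bases where the window allows, are given on the strand of the gene, with the core letters in capitals.

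BNIP3, chr10:131982008-131982081, minus strand, ends 85 bases before the start: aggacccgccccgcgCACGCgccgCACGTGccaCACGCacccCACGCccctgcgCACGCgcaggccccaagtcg
P4HA1, chr10:73096933-73096967, minus strand, ends 67 bases before the start: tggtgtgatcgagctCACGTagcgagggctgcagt
MXI1, the middle of its starts, chr10:110210089-110210137, plus strand, ends 94 bases before the start: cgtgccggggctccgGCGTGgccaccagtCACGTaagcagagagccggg
MXI1, the last of its starts, chr10:110225850-110225884, plus strand, ends 112 bases before the start: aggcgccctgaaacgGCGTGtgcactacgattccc
BHLHE40, chr3:4979187-4979307, plus strand, ends 130 bases before the start: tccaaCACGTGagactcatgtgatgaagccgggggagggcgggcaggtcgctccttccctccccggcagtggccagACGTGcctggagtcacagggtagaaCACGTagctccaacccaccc
ADM, chr11:10304957-10304991, plus strand, ends 82 bases before the start: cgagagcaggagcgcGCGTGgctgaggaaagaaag

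BNIP3, with the E-box and 4 further GCGTG cores in 1 stretch, had probe sets at -1.12 and 0.39, and MXI1, with cores before 2 of its 3 starts, had -0.93. BHLHE40, with the E-box and 2 further ACGTG cores, had 0.19 and 0.15, and P4HA1, with 1 core, had -0.46. The same letters thus stood before MXI1, which was lower, before BNIP3, whose probe sets disagreed, and before P4HA1 and BHLHE40, which were within 1.5-fold. No promoter is shown for VEGFA or BNIP3L. Of the genes shown, only MXI1 was at least 1.5-fold lower at every measured probe set, and it has only 1 probe set. At least 1 of the core motifs was also found at 20 of the 38 starts of 17 matched glycolytic genes, beside the 43.2% of all promoters. A match of 5 letters is a description of the sequence and not a site of binding, and the arrays do not measure binding.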

How the data were processed

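L-428 RNA was profiled on 2 HG_U133A arrays. From Cel files, the authors derived linear signal intensities in Expression Console by the MAS5 method, with both arrays brought to a target of 500, and these deposited intensities were used without detection calls. Genes were named from the platform annotation of 2016. The 68 control probe sets were left out, which left 22215. The log2 ratio of knock-down over control was computed with no further normalization, and probe sets with a mean of the 2 signals of at least 200 were called measured. A gene took its brightest probe set in lists. The SD between probe sets was the root mean square difference within pairs of the same gene, divided by the square root of 2, in bands of mean signal. As the scale of MAS5 is per array, ratios depend on scaling, and low signals are imprecise. Each group has 1 sample, so no test was made, and the number of arrays limits the precision. The members, lists and alternatives were chosen with earlier results of these data known; members were named at every probe set, and list genes for the highest and lowest ratios or as partners of a member. The steps were tested on simulated data. Python 3.11.15, numpy 2.4.6, pandas 2.3.3, statsmodels 0.14.6 (lowess, span 0.3) and matplotlib 3.10.9 were used. Some promoter sequences are not reported here.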

Additional observations from a re-analysis of the deposited data

How the results depend on the processing

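Under quantile normalization, centring on the median of all 22215 probe sets (which subtracts 0.12), subtraction of a lowess fit and 32 added to each signal, the ratios of all 15 probe sets moved by less than 1 SD between probe sets. The same 4 scalings left the counts of higher and lower probe sets within 1.5 times of those reported. With no filter on low signal 1 probe set, that of ADM, was at least 1.5-fold higher. Without the types _s_at and _x_at, which removes all of VEGFA, P4HA1 and BHLHE40 and leaves 4 probe sets by construction, 3 were lower. Ratios relative to GAPDH, a glycolytic gene that was itself 0.98 higher, were added after the data were seen. On that scale all 13 measured probe sets were at least 1.5-fold lower, with a median of -1.80, and the medians were -0.080 for glycolytic genes, which reversed, -0.87 for HIF regulators and -1.07 for other hypoxia targets. These shifts follow from the construction, which subtracts the GAPDH ratio from each value. No paired analysis was possible because there is 1 array on each side. Low signal over background limits ADM, NDRG1 and most VEGF receptors.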
